A study of Mus musculus with 8 samples.

Results

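Chromatin accessibility in hepatocytes 72 h after partial hepatectomy (PHx) was compared with that at 48 h. The members were 4 of the 8 bulk ATAC-Seq libraries of the series, 2 from each of these time points. The 0 h and 96 h libraries, also 2 each, served only to show where the called regions stood outside the comparison. All libraries came from C57BL/6 mice aged 10 to 12 weeks on a normal diet according to the labels, and hepatocytes were isolated by collagenase perfusion of the liver. The 48 h, 72 h and 96 h mice had undergone PHx, whereas the 0 h liver was undamaged. The study's methods name the strain as C57BL/6J and give a slightly younger age at surgery. The study's results describe separate hepatocyte preparations as biological replicates, more of them at 0 h and 48 h than the 2 libraries per time point used here. The labels do not tie libraries to animals, so which preparations these libraries came from is not known. Merging the intervals of the 4 lists gave 246698 regions. The 8 lists together held 315767.

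In ATAC-Seq, the Tn5 transposase cuts open DNA, and a peak caller reports the intervals where cuts pile up. After PHx, hepatocytes that are normally quiescent synthesise DNA and divide, and later return to quiescence while still carrying out the metabolic work of the liver. Open regions far from genes are mostly enhancers, bound in hepatocytes by C/EBP, HNF4 and FOXA factors. CTCF, by contrast, holds chromatin loops and binds much the same places in many cell types. The comparison asks which regions ranked higher among the open regions of 1 time point than of the other.

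Each region took, in each list, the percentile of its strongest interval by the authors' −log10 p, from near 100 for the strongest interval to 0 where the list had none. A region was called higher at 72 h if both 72 h percentiles exceeded both 48 h percentiles by at least 20 points, and higher at 48 h in the reverse case. The motif whose share differed most between the directions was that of C/EBP, the bZIP factors that drive many hepatocyte metabolic genes, written TTGCNNAA and searched on both strands in 200 bp around the strongest summit. It was found in 15.7% of regions higher at 72 h, in 8.72% of regions higher at 48 h and in 10.3% of all regions. The following windows belong to the 4 regions higher at 72 h with a C/EBP match and the largest margins, read from the plus strand of GRCm38.p6, which has the coordinates of mm10. They are named for the nearest protein-coding gene. The Cela3b region lies in a promoter, those named for Grem1 and Adgrl3 lie in introns and that named for Lipm between genes. At the Cela3b region, no 48 h list had an interval and the 72 h percentiles were 83.2 and 79.6. Capitals mark the match.
Cela3b region, chr4:137430630-137430829: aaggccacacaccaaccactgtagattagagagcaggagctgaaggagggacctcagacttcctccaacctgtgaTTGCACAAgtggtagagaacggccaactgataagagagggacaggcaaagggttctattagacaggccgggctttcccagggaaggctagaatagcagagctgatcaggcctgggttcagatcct
Grem1 region, chr2:113790301-113790500: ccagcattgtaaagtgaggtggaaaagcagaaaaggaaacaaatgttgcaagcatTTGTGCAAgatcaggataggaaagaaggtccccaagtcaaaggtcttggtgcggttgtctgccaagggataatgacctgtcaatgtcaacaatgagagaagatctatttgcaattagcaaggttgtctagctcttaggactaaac
Adgrl3 region, chr5:81510638-81510837: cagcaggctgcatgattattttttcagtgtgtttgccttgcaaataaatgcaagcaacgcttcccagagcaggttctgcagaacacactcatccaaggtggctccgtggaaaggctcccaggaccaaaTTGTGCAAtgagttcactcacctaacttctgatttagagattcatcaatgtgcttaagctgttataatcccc
Lipm region, chr19:34096326-34096525: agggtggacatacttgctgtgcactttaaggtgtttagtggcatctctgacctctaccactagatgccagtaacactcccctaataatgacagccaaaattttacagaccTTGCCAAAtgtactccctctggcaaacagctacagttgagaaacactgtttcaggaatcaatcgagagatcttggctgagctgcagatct

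Of the 4 regions higher at 48 h with a C/EBP match and the largest margins, 3 are shown for contrast, with the match again in capitals. All 3 lie between genes. At the region named for Ttpa the percentiles were 82.4 and 56.1 at 48 h, and no 72 h list had an interval.
Bhlhe23 region, chr2:180791824-180792023: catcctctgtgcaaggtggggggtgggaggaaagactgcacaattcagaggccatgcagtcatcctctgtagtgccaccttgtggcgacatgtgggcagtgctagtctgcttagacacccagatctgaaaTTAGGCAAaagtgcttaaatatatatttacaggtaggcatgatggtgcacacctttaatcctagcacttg
Eif2s3y region, chrY:1081697-1081896: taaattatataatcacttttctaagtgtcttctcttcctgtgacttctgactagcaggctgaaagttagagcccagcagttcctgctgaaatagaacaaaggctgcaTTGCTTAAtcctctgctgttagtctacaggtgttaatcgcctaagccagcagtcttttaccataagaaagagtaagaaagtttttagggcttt
Ttpa region, chr4:19968016-19968215: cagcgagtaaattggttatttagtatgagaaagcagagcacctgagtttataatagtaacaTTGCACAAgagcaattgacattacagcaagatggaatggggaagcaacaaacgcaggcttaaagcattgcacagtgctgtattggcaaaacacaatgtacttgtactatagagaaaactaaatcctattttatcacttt

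When only the 50000 strongest intervals of each list were ranked, the CTCF motif, a longer pattern, differed more than that of C/EBP, and in the reverse direction. A CTCF match was found in 4.38% of regions higher at 72 h, in 13.2% of those higher at 48 h and in 7.28% of all regions. Between the number 1 libraries and the number 2 libraries, a pairing that mixed the time points, the shares were 5.75% and 11.5%, a difference of −5.78 points beside −8.86 points by time, and the other mixed pairing gave 0.622 points. A pair of intergenic regions higher at 48 h carry it, in capitals, and neither was among the strongest intervals at 72 h.
Trim31 region, chr17:36914198-36914397: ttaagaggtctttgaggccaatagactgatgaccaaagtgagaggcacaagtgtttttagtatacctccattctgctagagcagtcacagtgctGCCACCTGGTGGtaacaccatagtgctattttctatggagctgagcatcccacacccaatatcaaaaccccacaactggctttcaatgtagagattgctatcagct
Eps8l3 region, chr3:107864024-107864223: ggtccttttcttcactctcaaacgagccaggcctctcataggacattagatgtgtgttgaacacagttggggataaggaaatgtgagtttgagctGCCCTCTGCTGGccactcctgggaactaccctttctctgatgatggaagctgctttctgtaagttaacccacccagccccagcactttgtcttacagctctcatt

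The lists differed in length and strength between the time points. The 48 h lists held 117943 and 139376 distinct intervals, and the 72 h lists 140311 and 154577. At rank 50000 the 48 h lists had a −log10 p of 8.05 and 8.62, and the 72 h lists 14.8 and 14.0. Both measures were lower in both 48 h libraries, and length, strength and time cannot be told apart in these 4 lists. The same gap in strength occurred within a time point, since the 96 h lists stood at 14.5 and 8.29 and the 0 h lists at 15.2 and 9.96. The names of 7 of the 8 lists carry a run code of the same form, which is missing from 72 h replicate 2. Values without that library are given for the counts, the promoter, C/EBP and CTCF shares and the 0 h and 96 h levels of the called regions. They are also given for the limma test, but not for other shares, single genes or gene lists. Read depth is unknown from peak lists. Results are therefore given for all intervals and for lists of equal length, the 50000 strongest of each library, a setting chosen with the imbalance known.

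With all intervals, 10010 regions were higher at 72 h, 4.06% of the 246698 regions, and 1365 were higher at 48 h, 0.553%. Among these, 65.7% of the regions higher at 72 h had no interval at all in either 48 h list, and 66.3% of those higher at 48 h had none in either 72 h list. With equal list lengths the directions were closer to balance. There, 2080 of 66258 regions were higher at 72 h (3.14%) and 1617 were higher at 48 h (2.44%). The sets were largely different. Of the 2080 regions higher at 72 h at equal length, 488 (23.5%) overlapped 1 called with all intervals, as did 70 of the 1617 higher at 48 h (4.33%), and none was called the other way.

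As background, the 4 lists were also joined into pairs across time. Pairing 72 h replicate 1 with 48 h replicate 1 gave 1395 regions higher in that pair and 5394 higher in the other with all intervals, and 1113 and 1206 at equal length. Pairing 72 h replicate 1 with 48 h replicate 2 gave 3064 and 2313 with all intervals, and 1138 and 1043 at equal length. The total by time, 11375 regions, was 1.87 times the mean of the crossed totals with all intervals, and the equal-length total of 3697 was 1.64 times that mean. Regions that separate pairs mixed across time were thus common. The smallest p that an exact two-sided permutation of 2 libraries against 2 can give is 0.33, so no p-value is given for these counts. In the plot of counts by pair, the excess by time is visible in both settings. Calls from 2 libraries against 1 were far more frequent and rest on an unreplicated arm. Leaving out 72 h replicate 2 gave 26594 regions higher at 72 h and 4405 higher at 48 h, against 37705 and 3036 on leaving out 72 h replicate 1. The counts were 16271 and 24618 when 48 h replicate 1 was left out, and 24315 and 13211 when 48 h replicate 2 was left out. The equal-length counts were 5836 and 4133 without 72 h replicate 2 and 5832 and 3967 without 72 h replicate 1. They turned to more regions higher at 48 h on leaving out a 48 h library, with 5138 and 6121 without replicate 1 and 5529 and 6117 without replicate 2.

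**Figure D1:**
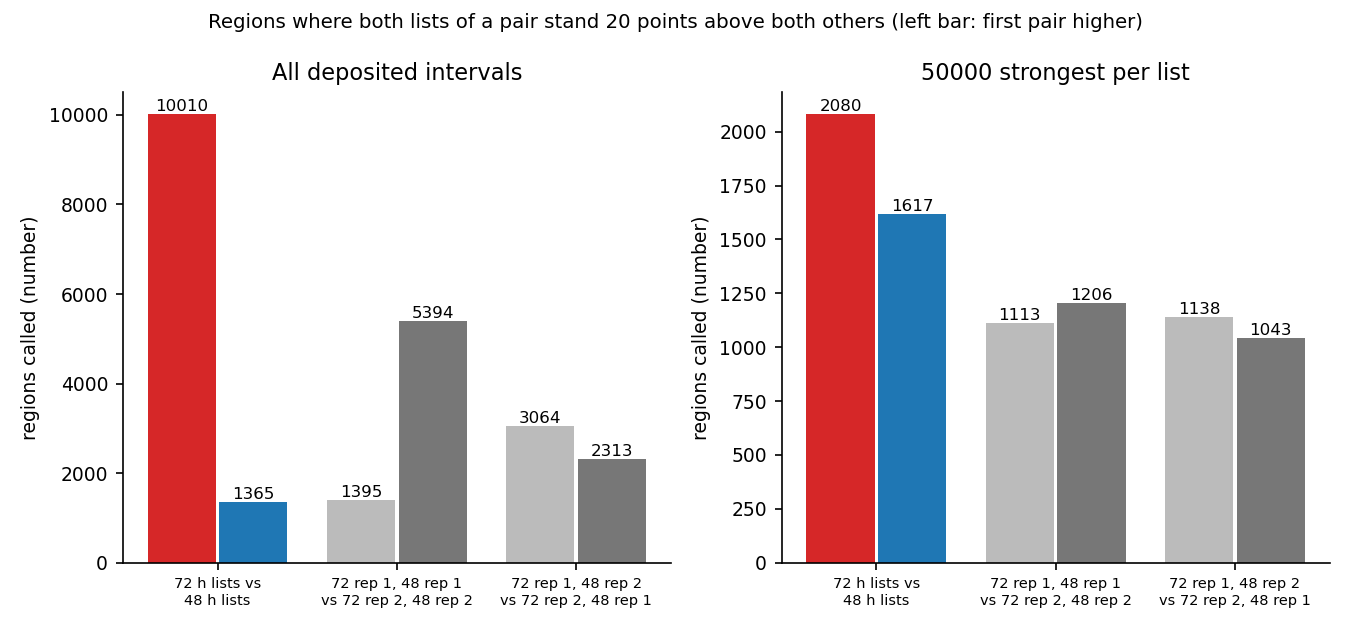
Number of regions (y axis) called by the 20-point rule for the pairing by time (red, 72 h higher; blue, 48 h higher) and for the 2 crossed pairings (light grey, first pair higher; dark grey, second pair higher), with all intervals at left and the 50000 strongest per list at right. The 10010 regions higher at 72 h shrank to 2080 at equal length, while the 1365 higher at 48 h became 1617.

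Regions called in either direction lay mostly away from promoters, defined as within 1 kb of any annotated transcription start site. With all intervals, 8.89% of regions higher at 72 h and 12.3% of those higher at 48 h were promoters, against 12.6% of all regions. The equal-length values were 12.6% and 21.1%, against 25.6% of all regions. Introns held 54.5% of regions higher at 72 h and 52.0% of those higher at 48 h with all intervals, and 51.1% and 38.5% at equal length, against 51.0% and 41.2% of all regions. Regions higher at 72 h at equal length lay a median of 24900 bp from the nearest coding start site, and those higher at 48 h lay 15470 bp away. For the crossed pairs at equal length, promoter shares ran from 17.0% to 20.7%, so 12.6% lay below and 21.1% just above them. The crossed pairs with all intervals held 9.68% against 12.7% and 10.4% against 12.8%, so pairings that mixed the time points differed nearly as much as the 3.42 points by time. The latter difference became 6.29 points without 72 h replicate 2, and the order turned by 0.852 points on leaving out 48 h replicate 1 and by 2.67 points on leaving out 48 h replicate 2. The equal-length shares were 13.4% and 24.3% without 72 h replicate 2, and the difference shrank to 0.317 points, at 19.1% and 19.5%, without 48 h replicate 2.

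**Figure D2:**
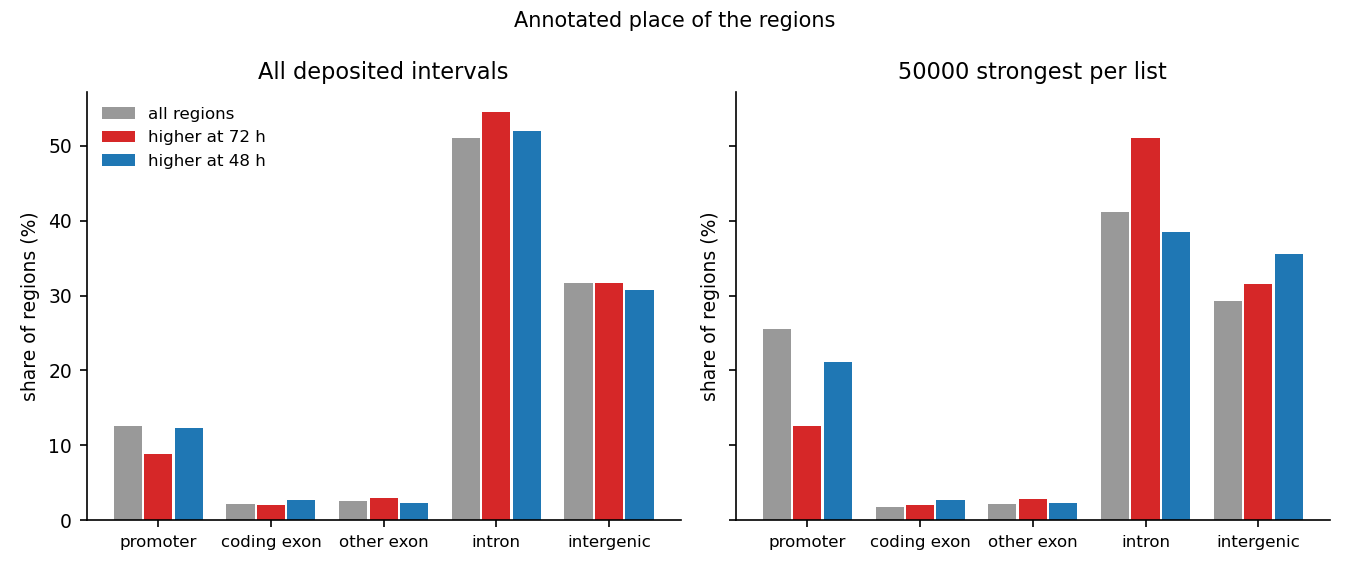
Share of regions (y axis, %) in each annotated place (x axis) for all merged regions (grey), regions higher at 72 h (red) and regions higher at 48 h (blue). At equal length, promoters made up 12.6% of regions higher at 72 h and 21.1% of regions higher at 48 h, against 25.6% of all regions.

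The motif shares describe the called regions, and the standing of every region with a motif gives a value for each library. Regions with a C/EBP match stood above the mean of all regions by 3.27 and 2.85 points in the 48 h lists and by 6.00 and 5.66 points in the 72 h lists, with all intervals. The time points did not overlap. At equal length their offsets were negative, −6.51 and −7.46 points in the 48 h lists and −4.10 and −5.14 points in the 72 h lists, again without overlap. In both settings 72 h was higher, by means of 2.77 and 2.37 points. The 0 h lists, at 5.16 and 5.11 points, and the 96 h lists, at 5.15 and 4.96 points, lay near the 72 h lists with all intervals. At equal length they did so less clearly, with offsets of −5.35 and −3.16 in the 0 h lists against −6.32 and −4.97 in the 96 h lists, so that 96 h replicate 1 stood beside the higher 48 h list. The 0 h lists, which also differ in strength, were thus nearly as far apart as the time points.

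The difference in C/EBP share between the called sets was 6.94 points with all intervals and 7.45 points at equal length. The crossed pair of the number 1 libraries against the number 2 libraries showed 5.95 and 2.85 points, and the other crossed pair 0.11 and −0.85 points. With all intervals, then, a pairing that mixed the time points gave a difference nearly as large. The difference was 2.34 points without 72 h replicate 2, 0.955 points without 72 h replicate 1, and 7.92 and 6.41 points without 48 h replicate 1 or 2. At equal length it was 7.39 points without 72 h replicate 2, and its lowest value was 2.93 points, without 48 h replicate 2. The CTCF shares at equal length were 4.18% and 13.0% without 72 h replicate 2, and lay closest without 48 h replicate 2, at 6.47% and 9.92%.

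HNF4, the nuclear receptor that maintains hepatocyte identity, gave the same order. Regions with its motif, CAAAGTCCA, stood above the mean by 9.27 and 9.55 points in the 48 h lists against 12.6 and 13.2 points in the 72 h lists with all intervals. At equal length the offsets were −6.46 and −8.12 points in the 48 h lists against −5.34 and −4.86 points in the 72 h lists. The 0 h and 96 h lists stood at 14.45 and 13.3 points and at 12.1 and 11.4 points with all intervals. At equal length they stood at −2.21 and 0.768 points and at −7.68 and −5.55 points. The 96 h lists thus lay below both 72 h lists there, and 96 h replicate 1 lay between the 48 h lists. Among called regions at equal length, the HNF4 share differed by 0.343 points by time, beside 0.332 and −1.60 points in the crossed pairs. FOXA factors open liver enhancers. Their motif, TGTTTAC, had offsets of 4.10 and 4.47 points in the 48 h lists against 6.15 and 6.02 points in the 72 h lists with all intervals, but the time points overlapped at equal length, as they did for the D-box.

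CTCF regions showed the reverse order at equal length only. They stood at 2.58 and 5.92 points in the 48 h lists and at −1.74 and 0.484 points in the 72 h lists. With all intervals the 48 h values were 29.97 and 34.3 points and the 72 h values 32.0 and 33.3 points, and the time points overlapped. The 96 h lists, at 1.88 and −1.99 points at equal length, and the 0 h lists, at −4.58 and −7.12 points, all lay below both 48 h lists. NRF1, a factor of housekeeping promoters with the motif GCGCATGCG, was lower at 72 h in both settings, at 38.7 and 37.8 points against 40.3 and 39.8 points at 48 h with all intervals, and at 17.4 and 16.9 against 22.9 and 23.0 points at equal length. Away from promoters the time points overlapped with all intervals, with 11.5 in both 72 h lists against 9.04 and 12.1 points in the 48 h lists, but not at equal length, with 2.60 and 2.32 against 5.79 and 12.0 points on 49 regions. Promoters as a class were also lower at 72 h, with mean differences of −0.972 points with all intervals and −1.37 points at equal length. For AP-1, the Fos and Jun dimers of the early growth response, with the motif TGACTCA, the time points overlapped with all intervals. At equal length its 48 h offsets were −1.26 and −2.32 points and its 72 h offsets −4.36 and −2.70 points. Among the 17 motifs searched, 72 h lay above 48 h in 7 and below in 5 with all intervals, and above in 3 and below in 7 at equal length. Such counts were not made for the crossed pairs, so how often motifs separate pairs mixed across time is not known.

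**Figure D3:**
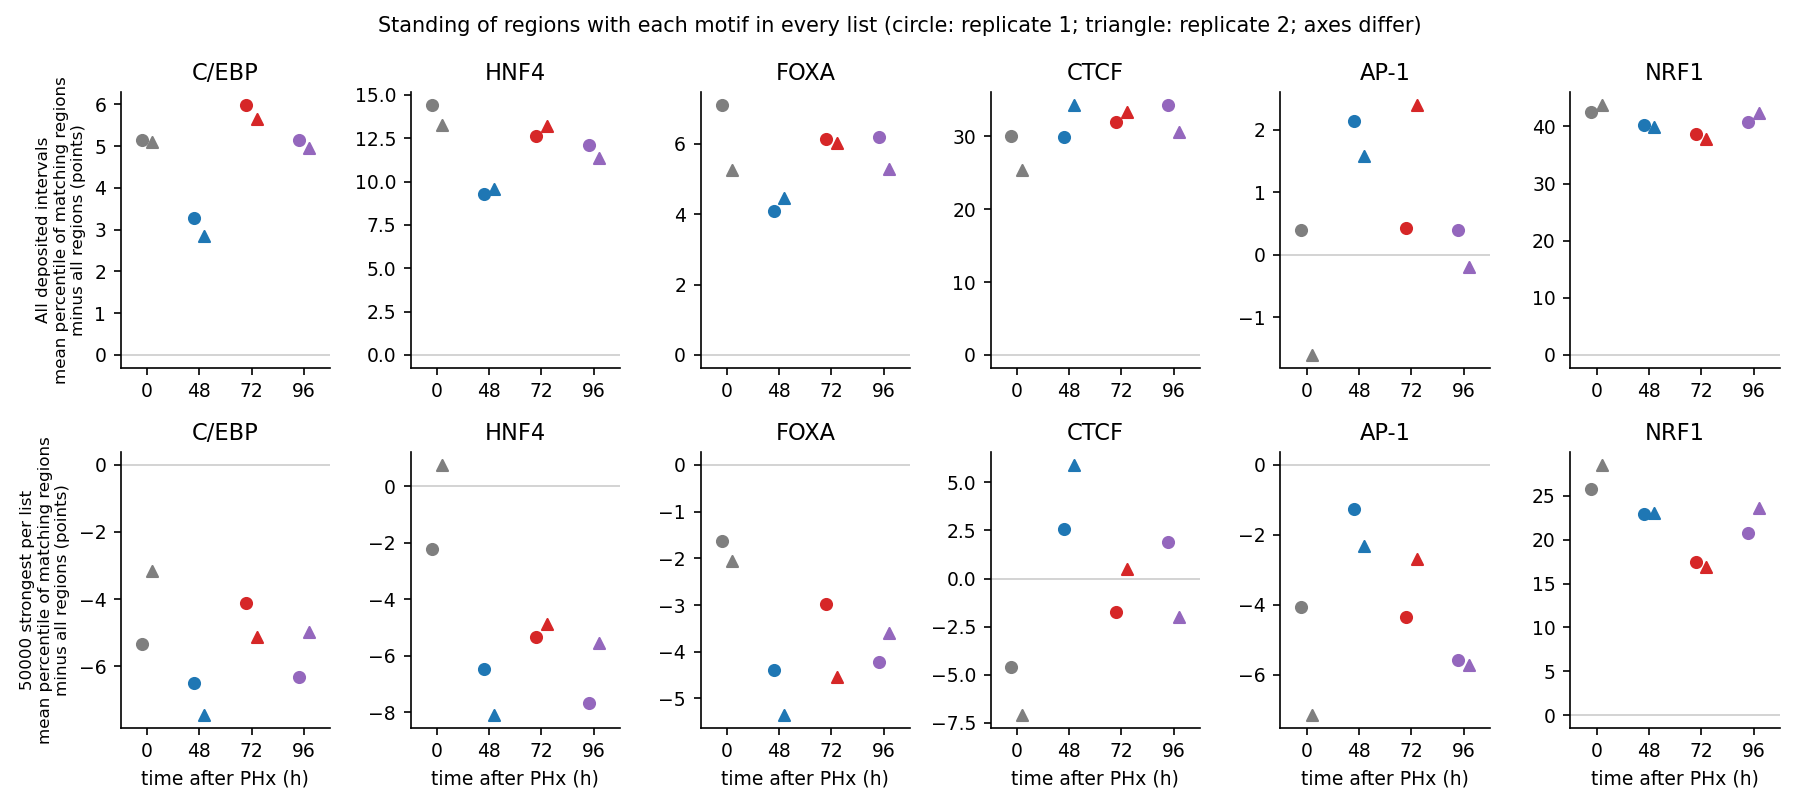
Mean percentile of regions with a motif minus the mean of all regions (y axis, points) in each library against time after PHx (x axis, h), with circles for replicate 1 and triangles for replicate 2, all intervals in the upper row and the 50000 strongest in the lower row. C/EBP and HNF4 were higher in both 72 h lists than in both 48 h lists in both rows, and CTCF was lower in both 72 h lists only in the lower row.

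The 0 h and 96 h lists took no part in choosing regions. With all intervals, 65.2% and 49.6% of the regions higher at 72 h had an interval in the 0 h lists, against 51.8% and 35.1% of those higher at 48 h. In the 96 h lists the shares were 73.7% and 51.5% against 50.1% and 35.6%. At equal length, 82.0% and 76.9% of the regions higher at 72 h had an interval at 0 h, against 75.1% and 71.9% of those higher at 48 h, and 88.1% and 79.8% against 70.3% and 68.3% at 96 h. The regions higher at 72 h were thus listed more often in each of the 4 other lists. For the crossed pairs at equal length, the corresponding differences were between 5.33 and 15.2 points in the 0 h lists. The 0 h differences by time, of which the larger was 6.94 points, did not exceed these. In the 96 h lists the crossed differences were between 2.05 and 12.4 points, and of the differences by time, 17.8 and 11.5 points, the first lay above them. With all intervals, no crossed difference in the 0 h lists was larger than 8.91 points, beside 13.4 and 14.5 points by time. For the 96 h lists the crossed values spanned −3.93 to 5.1 points, beside 23.6 and 15.9 points by time. Whether the 0 h excess lay above the crossed pairs thus depended on the setting.

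Median percentiles at equal length were 35.9 and 35.9 in the 0 h lists for regions higher at 72 h and 23.7 and 23.7 for those higher at 48 h. In the 96 h lists they were 40.6 and 36.9 against 22.9 and 20.8. The differences at 0 h, 12.1 and 12.2 points, were no larger than those of the crossed pairs, which ran from 6.90 to 19.5 points. At 96 h, the differences of 17.7 and 16.1 points exceeded those of the crossed pairs, 4.83 to 11.7 points. The order also rested on the full set of 4 libraries. With all intervals, the median differences were 22.8 and 0 points in the 0 h lists, with medians of 0 in replicate 2, and 38.7 and 4.41 points in the 96 h lists. Their means, 11.4 and 21.5 points, thus join unlike lists and are smaller than the SD between them, 16.1 and 24.2 points. The means were −24.2 and −25.1 points without 72 h replicate 2 and −20.8 and −20.6 points without 72 h replicate 1. Leaving out 48 h replicate 1 gave 26.7 and 35.9 points, and leaving out 48 h replicate 2 gave 35.6 and 44.0 points. The mean differences at equal length also turned, to −6.00 and −3.69 points without 72 h replicate 2 and to −16.6 and −12.6 points without 72 h replicate 1.

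**Figure D4:**
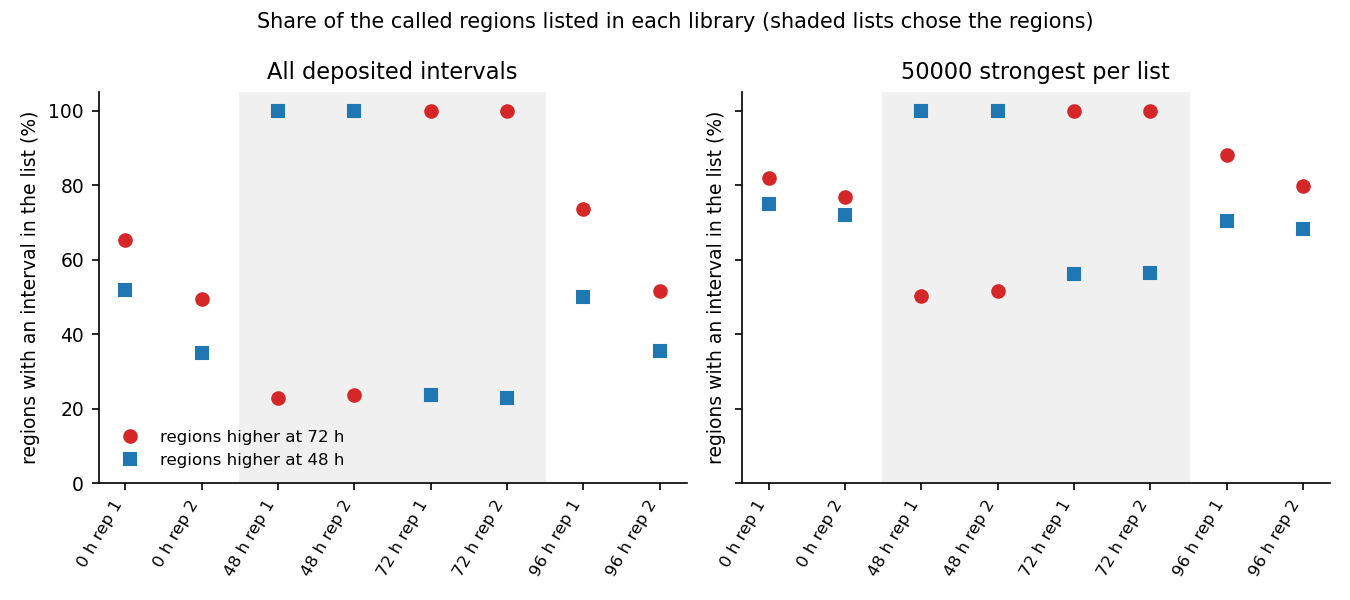
Share of called regions with an interval in each library (y axis, %) for regions higher at 72 h (red circles) and higher at 48 h (blue squares); the shaded 48 h and 72 h lists chose the regions, and the 0 h and 96 h lists did not. At 96 h, 73.7% and 51.5% of the regions higher at 72 h were listed with all intervals, against 50.1% and 35.6% of those higher at 48 h.

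Genes with several concordant regions were counted by assigning each region to the nearest coding start site within 50 kb. With all intervals, 279 of 18710 genes had 3 or more regions higher at 72 h, and 2 had 3 or more higher at 48 h. The crossed pairs gave at most 66. The equal-length numbers were 6 and 2 of 16160 genes, against at most 4 for the crossed pairs. Long genes hold many regions, so counts are given beside the number of regions of the gene.

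At equal length, Scarb1, the receptor through which hepatocytes take up cholesterol from HDL, led the genes higher at 72 h, with 5 of its 13 regions called. All 5 lay in introns. At chr5:125304477-125305073 the percentiles were 3.67 and 9.73 at 48 h and 57.7 and 54.1 at 72 h. This region ranked at 56.4 and 60.4 at 0 h and at 75.8 and 65.4 at 96 h. At chr5:125330026-125330867 the 48 h lists stood at 7.71 and 0 and the 72 h lists at 59.1 and 39.5. The 3 other regions had no interval among the 50000 strongest at 48 h, and percentiles from 27.95 to 47.5 at 72 h. Apart from the first region, which was high in the 0 h lists, the Scarb1 regions were low in them too, between 0 and 21.6, and ranged from 0 to 42.4 in the 96 h lists.

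Cpt1a, which carries long-chain fatty acids into mitochondria for oxidation, had 3 of 7 regions higher at 72 h, all intronic. The region at chr19:3353376-3354284 stood at 46.1 and 33.6 at 48 h and at 72.3 and 79.0 at 72 h. At chr19:3326213-3326881 there was no interval among the strongest at 48 h, and the percentiles were 45.0 and 43.8 at 72 h. Chromosome 19, which carries Cpt1a, held the largest share of regions higher at 72 h among the autosomes in both settings, 6.08% at equal length and 7.25% with all intervals.

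Ssbp3, a cofactor of LIM-domain transcription factors, had 3 of 10 regions called. The intergenic region at chr4:106870573-106871350 stood at 26.0 and 23.2 at 48 h and at 57.3 and 72.4 at 72 h. The 0 h lists, at 83.7 and 83.1, and the 96 h lists, at 74.2 and 80.4, were also high. The order differed at chr4:106866576-106867363, where the 0 h lists stood at 0 and 1.98 and the 96 h lists at 49.5 and 0, against 22.7 and 15.9 in the 48 h lists and 52.1 and 45.0 in the 72 h lists. Myo18a, an unconventional myosin, had 3 of 11 regions called, of which a promoter region at chr11:77801000-77801463 was not among the strongest intervals at 48 h and stood at 61.5 and 54.9 at 72 h. Zbtb7c, a zinc finger repressor, had 3 of 14 regions called, and Dact2, an inhibitor of Wnt and TGF-β signalling, 3 of 11. Rgs9 had 2 of 5 and Igsf21 2 of 3.

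With all intervals, the genes higher at 72 h were long. Psd3, an exchange factor for ARF6, had 10 of 128 regions called, and Foxp1, a forkhead repressor, had 10 of 150. These shares, 7.81% and 6.67%, compare with 4.06% of all regions. At the Foxp1 intron region chr6:99120744-99121440 the percentiles were 0 and 0.771 at 48 h and 58.4 and 63.2 at 72 h. At the Psd3 intron region chr8:68033969-68034341 no 48 h list had an interval, and the 72 h percentiles were 48.5 and 53.3. Ttc39c had 7 of 44 regions called, Mtus1 6 of 65, Sept9 6 of 63 and Rapgef2 6 of 58. St3gal1, a sialyltransferase, had 5 of 38 and Shb, an adaptor protein, 5 of 31. The Shb intron region at chr4:45494014-45494380 had no interval at 48 h and stood at 76.2 and 68.3 at 72 h.

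Among the genes higher at 48 h, Abt1 is a basal transcription activator on chromosome 13. It had 3 of 19 regions called with all intervals, 3 of 11 at equal length, and none the other way. The region at chr13:23425450-23425786 stood at 91.7 and 86.2 at 48 h and at 54.5 and 53.9 at 72 h with all intervals. At 0 h it stood at 53.4 and 15.8, and at 96 h at 10.5 and 0, so the 48 h lists were the highest of all 8 there. At chr13:23400694-23400909 only the 48 h lists had an interval, at 70.4 and 70.1. Other called regions were high before PHx too. At equal length the promoter region chr13:23423921-23424278 stood at 45.7 and 63.4 in the 0 h lists against 65.7 and 42.4 in the 48 h lists, and that at chr13:23401588-23402464 at 39.9 and 63.3 against 69.0 and 64.9. This stretch of chromosome 13 holds replication-dependent histone genes. At equal length the 1 Mb bin from 23000001 to 24000000 held 8 regions higher at 48 h and none higher at 72 h, of 84, and the bin from 21000001 to 22000000 held 7 and none, of 64. These were the bins with the most regions higher at 48 h, tied with 7 of 89 in the bin chr17:35000001-36000000.

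Nfkbia encodes IκBα, the inhibitor that keeps NF-κB in the cytoplasm. At equal length, 3 of its 11 regions were higher at 48 h. The region at chr12:55464024-55464603 stood at 43.3 and 42.5 at 48 h and at 3.22 and 4.80 at 72 h. It had no interval among the strongest in 0 h replicate 1 and in both 96 h lists, and stood at 19.6 in 0 h replicate 2. At chr12:55480573-55481274 the percentiles were 34.6 and 21.3 at 48 h, and the region was not among the strongest intervals at 72 h or 96 h. It stood at 25.2 and 19.7 at 0 h. Nrarp, a target and feedback inhibitor of Notch signalling, had its promoter region, chr2:25180799-25181206, at 35.8 and 44.3 at 48 h and not among the strongest at 72 h. Rhou, an atypical small GTPase, had 2 of 10 regions called, and the region at chr8:123643654-123644087 stood at 53.2 and 56.2 at 48 h and at 3.71 and 0 at 72 h. Mtfp1, a mitochondrial fission protein, had 2 of 4 regions called, its promoter among them, at 39.9 and 32.4 at 48 h and 0 in both 72 h lists. Eps8l3 had 2 of 6 regions called, Dnaic1 2 of 5 and Zfp184 2 of 13.

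With all intervals, Esr1, the estrogen receptor alpha, had 3 of 40 regions higher at 48 h. At chr10:4626515-4626748 only 48 h lists, at 43.2 and 67.9, and 96 h replicate 2, at 57.9, had an interval. Nnt, the mitochondrial transhydrogenase, had 2 of 16 regions called. Mff had 2 of 7, Mtmr3 2 of 17, Rnf19a 2 of 22 and Pcsk6 2 of 28.

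**Figure D5:**
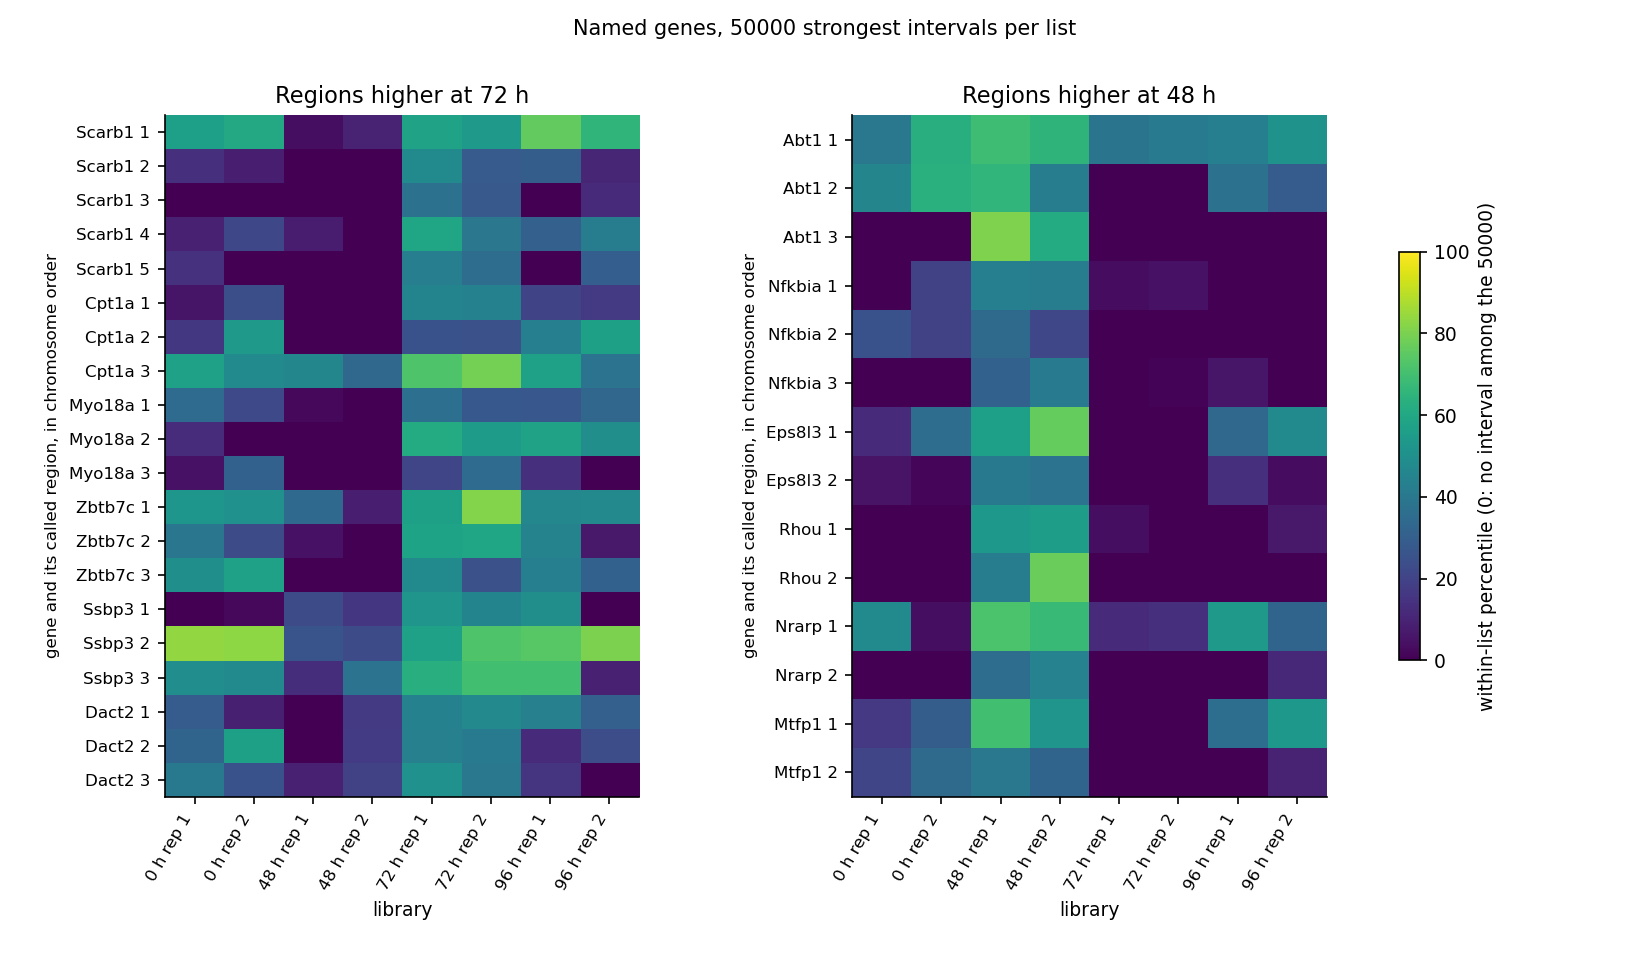
Within-list percentile (colour, 0 where no interval was among the 50000 strongest) of the called regions of 12 named genes (rows) in each library (columns). The 48 h columns are dark for Scarb1 and the 72 h columns for Nfkbia and Rhou, while 1 Cpt1a region stood at 46.1 and 33.6 at 48 h and the first Abt1 region at 38.6 and 40.8 at 72 h.

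With all intervals, the largest margin for 72 h was 79.6 points, at an intron region of Ubac1 (chr2:26011910-26012284) and at the Cela3b promoter region. The Ubac1 region had no interval at 48 h and percentiles of 79.9 and 79.6 at 72 h. An intron region of Lpin1, the phosphatidate phosphatase and metabolic coactivator, at chr12:16546599-16547149, had no interval at 48 h and stood at 78.3 and 80.4 at 72 h. It stood at 42.8 and 69.6 at 0 h, and at 33.6 and 0 at 96 h. At equal length, the intergenic region 30077 bp from the start site of Ppp1r3b, the glycogen-targeting phosphatase subunit of liver, at chr8:35405835-35407102, stood at 6.37 and 0.506 at 48 h and at 75.1 and 75.8 at 72 h. The 0 h lists were again high, at 62.4 and 70.9, and the 96 h lists lay lower, at 31.1 and 37.7. The largest margin for 48 h at equal length belonged to a region at chr14:46277270-46278166, at 70.2 and 70.0 at 48 h and at 0 and 0.822 at 72 h. The promoter of Lrrc73 stood at 80.7 and 72.3 at 48 h and at 9.26 and 8.75 at 72 h. With all intervals, the margins of the called regions began at the threshold of 20 points, with medians of 32.1 points for 72 h and 29.5 points for 48 h, and the regions just outside lay within rounding of it.

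Gene lists of liver function were described by counts of promoters and of regions within 50 kb. With all intervals, 9 of the 221 regions of pericentral genes were higher at 72 h (4.07%) and none higher at 48 h, near the 4.06% and 0.553% of all regions. At equal length 2 and 1 of 68 were called (2.94% and 1.47%), against 3.14% and 2.44% of all regions. The promoter of Cyp1a2, a pericentral cytochrome P450, had no interval at 48 h and stood at 62.8 and 63.9 at 72 h. It stood at 59.2 and 63.7 at 0 h and at 32.6 and 17.9 at 96 h. At equal length the promoter of Axin2, the negative feedback target of Wnt signalling, stood at 48.2 and 24.0 at 48 h and at 75.8 and 77.4 at 72 h. Its 0 h values of 66.2 and 81.9 and 96 h values of 68.6 and 80.6 were close to the 72 h values. Among all intervals it was within the margin, at 78.0 and 72.8 against 91.4 and 92.7.

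The fetal and progenitor list had 17 of 238 regions higher at 72 h with all intervals (7.14%, beside 4.06% of all regions), and 5 of 59 at equal length (8.47%, beside 3.14%). It had 1 region higher at 48 h with all intervals (0.420%, beside 0.553%) and none at equal length, where 2.44% of all regions were called. All 5 genes of the biliary marker list are also in this list, and they had 4 of 53 regions higher at 72 h with all intervals (7.55%) and 2 of 13 at equal length (15.4%), against the same 4.06% and 3.14%. The promoter of Tnfrsf12a, the receptor for the TWEAK cytokine, was not among the strongest intervals in 48 h replicate 1 and stood at 2.59 in replicate 2, against 36.5 and 41.6 at 72 h. It stood at 55.1 and 59.6 at 0 h. With all intervals it was within the margin, at 0 and 65.1 against 77.4 and 81.1. The promoter of Krt7, a keratin of biliary cells, had no interval at 48 h and stood at 24.8 and 43.6 at 72 h with all intervals.

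For the cell cycle, the 24 genes of G1/S and DNA replication had 10 of 226 regions higher at 72 h (4.42%) and none higher at 48 h with all intervals, and 1 of 77 (1.30%) and none at equal length. The 18 mitosis genes had 3 of 110 (2.73%) and none, and 1 and 1 of 43 (2.33% each) at equal length. No promoter of either list was called, of 24 and 18 listed with all intervals and 23 and 17 at equal length. Of all 30985 promoter regions, 890 were higher at 72 h and 168 higher at 48 h with all intervals. The equal-length counts were 262 and 341 of 16963. AP-1 and immediate early genes had 9 of 185 regions higher at 72 h (4.86%) and none higher at 48 h with all intervals, and 1 of 73 in each direction (1.37%) at equal length. The shares higher at 72 h lie near the 4.06% of all regions or below it, and below 3.14% at equal length. Of all regions, 0.553% were higher at 48 h with all intervals and 2.44% at equal length, so few such calls could fall in these lists.

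Hepatocyte transcription factor genes had 22 of 410 regions higher at 72 h (5.37%) and 1 higher at 48 h (0.244%) with all intervals, beside 4.06% and 0.553% of all regions. At equal length they had 2 and 4 of 150 (1.33% and 2.67%), beside 3.14% and 2.44%. The promoter of Onecut1, a factor of hepatocyte and biliary development, stood at 69.2 and 43.1 at 48 h and at 16.9 and 0 at 72 h at equal length, but with all intervals it stood at 86.9 and 79.6 against 70.4 and 0, within the margin. Genes of sterol, fatty acid and bile acid metabolism had 16 of 340 higher at 72 h (4.71%) and 2 higher at 48 h (0.588%) with all intervals, and 6 and 4 of 115 (5.22% and 3.48%) at equal length. The Fasn promoter, of the fatty acid synthase gene, stood at 21.01 and 51.2 at 48 h and was not among the strongest at 72 h at equal length. With all intervals it was within the margin, at 66.5 and 82.5 against 60.9 and 58.6. It varied within time points, at 0 and 54.4 at 0 h and 0 and 61.2 at 96 h.

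Secreted plasma protein genes had 10 of 200 regions higher at 72 h (5.0%) and 3 higher at 48 h (1.5%) with all intervals, and 1 and 3 of 72 (1.39% and 4.17%) at equal length. The promoter of Apoa1, the main HDL protein, stood at 28.2 and 32.8 at 48 h and at 4.28 and 0 at 72 h at equal length, but with all intervals it stood at 69.6 and 75.9 against 65.9 and 67.1, within the margin. Among circadian clock genes, 6 and 1 of 273 regions were called (2.20% and 0.366%), and 3 and 3 of 116 at equal length (2.59% each). The promoter of Ciart, a clock repressor, stood at 21.6 and 16.2 at 48 h and at 57.2 and 48.0 at 72 h at equal length, and at 66.8 and 70.0 against 84.8 and 83.2 with all intervals, within the margin. Periportal and urea cycle genes had 12 and 0 of 243 (4.94% and 0%) with all intervals and 2 and 2 of 63 (3.17% each) at equal length. The genes of TGF-β, activin and Hippo signalling had 11 and 3 of 330 (3.33% and 0.909%), and 5 and 1 of 90 (5.56% and 1.11%) at equal length. Xenobiotic metabolism genes had 10 and 4 of 228 (4.39% and 1.75%), with Cyp4a10 the only promoter called, and none of 66 at equal length. These shares lay on both sides of the 4.06% and 0.553% of all regions, and of the 3.14% and 2.44% at equal length, on few regions.

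Markers of other liver cells were checked because perfused preparations can hold them. With all intervals, 5 of 6 hepatocyte marker promoters had an interval, 3 of 5 endothelial, 2 of 6 Kupffer cell, 5 of 7 stellate cell, 4 of 5 biliary and none of 4 lymphocyte promoters. Of the regions near these genes, 6 of 43 stellate, 4 of 53 biliary, 3 of 61 endothelial, 1 of 13 lymphocyte and none of 70 Kupffer regions were higher at 72 h. At equal length, 2 of 11 stellate (18.2%) and 2 of 13 biliary regions (15.4%) were higher at 72 h, beside 3.14% of all regions, and none of the others. Only 1 region, near an endothelial gene, was higher at 48 h, with all intervals (1.64% of the 61, beside 0.553% of all regions). Near hepatocyte marker genes, 8 of 138 regions were higher at 72 h and 2 higher at 48 h with all intervals (1.45%, beside the same 0.553%). At equal length the counts were none and 2 of 41 (4.88%, beside 2.44% of all regions). The stellate share was 14.0%, the lymphocyte share 7.69%, the biliary share 7.55%, the hepatocyte marker share 5.80% and the endothelial share 4.92%, all above the 4.06% of all regions, on few regions. Of the 5 stellate promoters listed with all intervals, none stood above in both 72 h lists and 1 stood above in both 48 h lists. At equal length none and 2 of 3 did. Among all regions, with all intervals, 14.8% stood above in both 72 h lists and 4.43% in both 48 h lists. The part of other liver cells in the results was not tested. In bulk nuclei, more cells of a type and more open chromatin per cell cannot be told apart.

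A test across regions used fold enrichment over background in the 68107 regions with an interval in all 4 lists. By limma on quantile-normalised log2 fold enrichment, with Benjamini-Hochberg adjustment, 0% of regions passed an adjusted p of 0.05, 0 in number, and the lowest adjusted p was 0.564. At an unadjusted p under 0.05 there were 2889 regions higher and 2254 lower at 72 h, 7.55% of those fitted. Under median scaling the split turned, to 2523 higher and 3432 lower, and no region passed the adjusted p there either. The region with the lowest p lay in intergenic DNA 114607 bp from a start site of Tet2, at chr3:133429314-133429761. Its log2 fold enrichment was 2.52 and 2.86 at 48 h and 4.06 and 4.21 at 72 h, a difference of 1.45 ± 0.22 (SE). The region near Rgs9 at chr11:109312132-109312570 stood at 2.62 and 2.60 against 3.78 and 4.12, and the lowest p among regions lower at 72 h belonged to 1 lying 46793 bp from Hepacam2, at 4.02 and 4.19 against 3.13 and 2.88. Of the Scarb1 regions, the 5 differences ran from 0.27 to 1.04 and none passed. The 3 Cpt1a regions differed by 0.16 to 0.46 and none passed either, and at chr19:3353376-3354284 the time points overlapped, at 2.87 and 2.64 against 2.72 and 3.10. Regions with a C/EBP match had a median difference of 0.05 and those with a CTCF match of −0.09, beside −0.01 for all regions fitted.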

How the data were processed

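Bulk ATAC-Seq peak lists of 8 libraries were used, 2 at each of 4 time points, grouped by the sample labels. Per the study's methods, the authors ran the ENCODE pipeline and called peaks with MACS2; the submitters' processing notes name mm10. Each deposited list gives, per summit line, a fold enrichment over background (a ratio), a −log10 p and a −log10 q, a display score and the summit position, and no read counts, so depth is unknown and the study's test on counts could not be run. Lines of 1 interval were collapsed to the strongest, ranked by −log10 p within each list, and merged across the 48 h and 72 h lists where they shared at least 1 bp. Promoters, genes and classes came from GENCODE M21 (basic), and 200 bp windows from GRCm38.p6. A list that misses a weak region gives it percentile 0, so list length enters every count. Fold enrichment was tested by limma 3.58.1 in R 4.3.3 (quantile normalisation, trend, Benjamini-Hochberg adjusted p under 0.05). Ranking, calling and limma were tested on simulated data. Python 3.11.15, numpy 2.4.6, pandas 2.3.3 and pysam 0.24.0 were used.

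Named genes were, per direction and setting, the 8 coding genes with the most called regions within 50 kb and none in the other direction, the 6 regions with the largest margins, listed genes with a called promoter, and, for sequence, the 4 largest-margin regions with the most unequal motif. Some results this rule names, including 1 gene and 1 window, are not reported here. The CTCF windows, the bins, chromosome 19 and the limma regions near Tet2, Rgs9 and Hepacam2 were chosen after their values were seen. The 18 gene lists, the 17 motifs, the 20-point margin and the comparison itself were chosen with earlier results of these data known. Alternatives were margins of 10 and 30 points, lists cut to 50000 or to the shortest list, q under 0.05, 200 bp around summits, ranking by fold enrichment, intervals in all 4 lists, each library left out and a replicate block; cutting to the shortest list, leaving out a library at equal length and the alternatives for the C/EBP share were added after seeing the data.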

Additional observations from a re-analysis of the deposited data

How the results depend on the processing

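The excess of regions higher at 72 h over regions higher at 48 h differed between settings, and settings of equal length differed among themselves. The counts were 17439 and 3083 at a margin of 10 points, 5642 and 654 at 30 points, 1238 and 176 with an interval in all 4 lists, 2080 and 1617 for the 50000 strongest, and 5609 and 2177 when lists were cut to the shortest. Fewer regions were higher at 48 h with q under 0.05 (856) and more in 200 bp around summits (2926). Leaving out 1 library gave 16271 to 37705 and 3036 to 24618 regions. The difference in promoter share, −3.42 points, became −8.49 for the 50000 strongest and −13.7 around summits, and ran from −6.29 to 2.67 without 1 library, turning without either 48 h library (0.852 and 2.67). The difference in CTCF share, −0.596 points, had no stable sign: it was −2.60 at a margin of 10, 0.256 at 30, −3.10 with an interval in all 4 lists, −8.86 for the 50000 strongest, 0.109 around summits and −2.38 with the shortest length, and ran from −3.89 to 3.20 without 1 library, positive on leaving out either 48 h library (1.53 and 3.20). The difference in C/EBP share, 6.94 points, kept its sign throughout, at 9.81 with an interval in all 4 lists, 4.56 around summits and 0.955 to 7.92 without 1 library. Without 1 library, the 0 h level difference ranged between −24.2 and 35.6 points and the 96 h difference between −25.1 and 44.0 points. They turned without 72 h replicate 1 (−20.8 and −20.6) or 72 h replicate 2 (−24.2 and −25.1); they kept their sign under all other settings with 4 libraries. The cause of these changes was not tested. Ranking by fold enrichment moved none of these values beyond their spread.

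Leaving out a library among the 50000 strongest of each list was added after seeing the data. Without 48 h replicate 1 it gave 5138 regions higher at 72 h and 6121 higher at 48 h, a CTCF difference of −7.75 points and a 0 h level difference of 28.2 points. Without 48 h replicate 2 the counts were 5529 and 6117, the promoter, CTCF and C/EBP differences −0.317, −3.45 and 2.93 points, and the 0 h level difference 31.97 points. Without 72 h replicate 1 the counts were 5832 and 3967, the share differences −9.60, −6.41 and 5.10 points, and the 0 h and 96 h level differences −16.6 and −12.6 points. Without 72 h replicate 2 the counts were 5836 and 4133, the promoter and CTCF differences −10.95 and −8.86 points, and the level differences −6.00 and −3.69 points.

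Replicate numbers are shared between the time points, but same-numbered libraries deviated together only weakly (correlation 0.0015 over all regions and 0.030 over regions with an interval in all 4 lists, across regions, which are not independent), so the numbers were not taken as pairs. With the replicate block, 12128 regions were higher at 72 h and 1818 at 48 h, the CTCF difference was −1.96 points, and limma called 110 regions, 90 higher and 20 lower at 72 h, on 1 residual degree of freedom. Without the block limma called 0 regions under median scaling, in 1 fit of all 8 lists, with −log10 p of at least 5 in all 4 lists and without each library, where the lone library is assumed to vary like the others. The lowest adjusted p over these was 0.155 to 0.999, with 4.55% to 9.56% of regions at an unadjusted p under 0.05.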

Other observations

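With all intervals, the megabase bin that held the most regions higher at 72 h was chr19:55000001-56000000, with 26 of 242 regions higher at 72 h and 1 higher at 48 h. Next came chr12:104000001-105000000, with 21 of 245 and 1, tied with chr18:12000001-13000000, with 21 of 268 and 1. At equal length the leading bin was chr19:46000001-47000000, with 9 of 86 and none. The bins were chosen after their values were seen and were not tested.

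The 2 libraries of a time point were not always the most alike. The overlap of the 50000 strongest intervals, as shared over total bases, was 0.565 for the 48 h libraries and 0.619 for the 72 h libraries. Across time it ran from 0.560 to 0.594, so 48 h replicate 2 shared more with each 72 h library (0.594 and 0.593) than with 48 h replicate 1.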
